A study of Mus musculus with 12 samples.

Results

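The genes described are 10 G protein-coupled receptors of sensory ganglia, out of 24033 genes in the deposited count table. They are the cholecystokinin receptor gene Cckbr, the orphan receptor gene Gpr151, the galanin receptor genes Galr1 and Galr2, the neuropeptide Y receptor genes Npy1r and Npy2r, the angiotensin receptor genes Agtr1a and Agtr1b, the somatostatin receptor gene Sstr2 and the cysteinyl leukotriene receptor gene Cysltr2. They were taken by gene symbol and chosen by their measured injury change in both RNA fractions. The injury values are therefore given as a description with no test. The ligand of Cysltr2 is a lipid and not a peptide, and Gpr151 has no settled ligand, so the set is a mixed one.

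RNA came from dissociated lumbar L4 to L6 dorsal root ganglia of Adv-Cre//Ribotag mice. In these animals the Advillin gene drives Cre recombinase in sensory neurons, and Cre switches on a hemagglutinin-tagged ribosomal protein, Rpl22. All 4 groups of 3 libraries carried both alleles. They were ribosome immunoprecipitate (IP) and input RNA of naive ganglia, and IP and input RNA of ganglia taken 3 days after a crush of 1 sciatic nerve. The labels state that injured and naive ganglia came from each animal and that 4 mice were used, while each group holds 3 libraries. They give no animal for a library and no age. By their wording the naive ganglia came from mice that also had a crush, and may be those of the other side. The p-values below measure the spread between these libraries, part of which may be technical.

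Neuropeptide receptors couple to heterotrimeric G proteins and set the excitability and transmitter release of the neurons that carry them. The galanin receptor of Galr1 and the neuropeptide Y and somatostatin receptors couple mainly to inhibitory G proteins. Cholecystokinin B, angiotensin type 1 and cysteinyl leukotriene receptors couple mainly to Gq and mobilise calcium. Sensory neurons change their peptides and receptors after axotomy, and the induction of galanin and neuropeptide Y is a long-known part of that response. Arrestins and regulators of G protein signalling (RGS proteins) end the signal.

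Libraries held 29436945 to 41990355 counts, with the 3 injured IP libraries the deepest. Of 13 sensory neuron markers, 11 were higher in IP than in input and 0 were lower, averaged over naive and injured ganglia. Neuron classes differed in this: of 7 myelinated neuron markers, 2 were higher and 3 lower. Of 6 peptidergic neuron markers 1 was higher and 0 lower, and of 7 itch neuron markers 6 were higher and 0 lower. All 7 satellite glia, 7 Schwann cell, 6 macrophage, 7 endothelial and 7 fibroblast markers tested, and 6 of 7 pericyte and smooth muscle markers, were lower in IP (edgeR, adjusted p under 0.05). Those markers were reduced and not removed: none was at 0 in any library, and the summed satellite glia level was 475 to 1190 CPM (counts scaled to library size and composition) in IP against 3580 to 4240 CPM in input. Summed macrophage markers were 5.57 to 16.1 CPM in naive IP and 14.6 to 46.8 CPM in injured IP, and 74.9 to 94.3 CPM against 170.0 to 223.0 CPM in input. In these bulk samples, fewer cells of a type and less RNA per cell cannot be told apart.

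Both naive libraries numbered 2 stood apart in the transcripts that axotomy induces. Atf3, a transcription factor gene of injured neurons, reached 6.05% of the injured mean in naive IP replicate 2, against 1.67% and 1.91% in replicates 1 and 3. Sprr1a, another regeneration-associated gene, reached 2.41% against 0.169% and 0.132%. Changes of Cckbr, Gpr151, Gal and Npy are given with and without them.

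**Figure D1:**
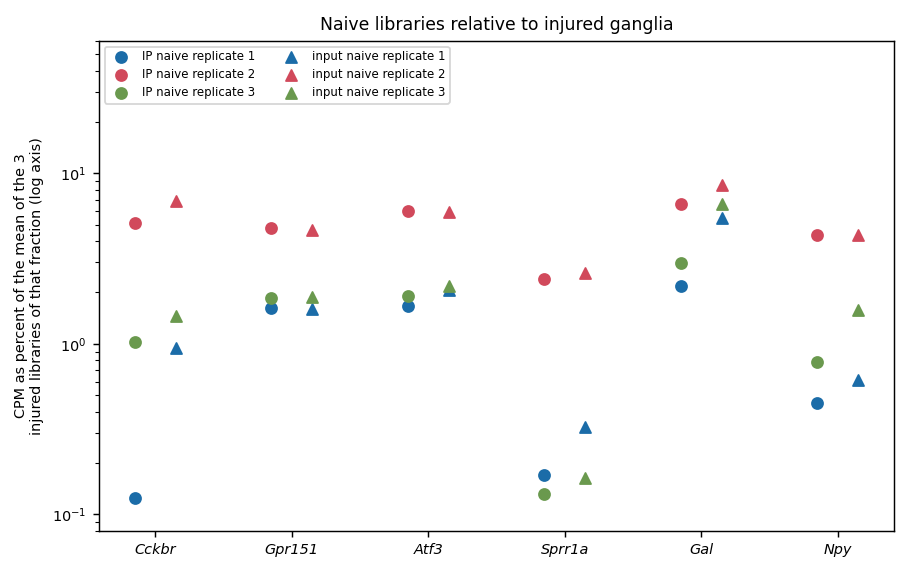
CPM of each naive library as a percent of the mean of the 3 injured libraries of the same fraction, on a log axis, for Cckbr, Gpr151, the injury genes Atf3 and Sprr1a, and the peptide genes Gal and Npy; circles are IP and triangles input. In each gene and fraction the naive library numbered 2 is the highest, at 2.41% to 8.49%.

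Levels per transcript length put the receptors in a different order in naive and injured ganglia. In naive IP, Agtr1a was highest at 11.6 ± 0.512 CPM per kilobase (SD, n = 3). Cysltr2 at 9.49 ± 0.828 and Npy2r at 9.31 ± 0.504 followed and did not differ beyond their spread. Npy1r, Galr1 and Agtr1b formed a middle group at 4.43 ± 0.743, 3.76 ± 0.111 and 3.63 ± 0.374 CPM per kilobase, with overlapping SDs. Sstr2 and Gpr151 were near 1.69 and 1.65, and Cckbr at 0.202 and Galr2 at 0.133 were the lowest and within each other's spread. Naive IP replicate 2 carried much of these levels: without it Gpr151 was at 1.04, below Sstr2 at 1.62, and Cckbr at 0.0558, below Galr2 at 0.125. In injured IP, Gpr151 led at 59.8 ± 4.44 CPM per kilobase, followed by Npy2r at 10.8 ± 0.532 and Cckbr at 9.68 ± 1.36, which were within their spread of each other. Galr2 remained last at 0.0743 ± 0.021.

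**Figure D2:**
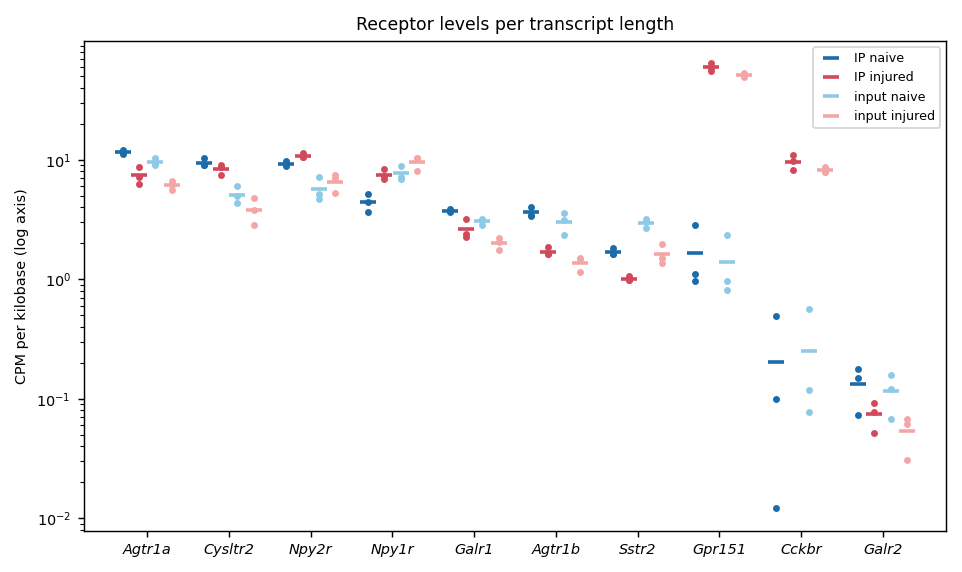
Level of each receptor as CPM per kilobase of its longest protein-coding transcript, on a log axis, with points for the 3 libraries and a bar for the mean of each of the 4 groups. Gpr151 and Cckbr move from the low end in naive ganglia (1.65 and 0.202 in IP) to among the highest in injured ganglia (59.8 and 9.68 in IP).

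In IP, the naive and injured libraries did not overlap in 8 of the 9 receptors that passed the low-count filter, 4 with injured libraries higher and 4 with them lower. Over all genes tested, 24.1% were separate with injured libraries higher and 20.5% with them lower. In input they did not overlap in 6 of the 9, 2 higher and 4 lower, against 14% and 14.7% of all genes. By the edgeR test, 11.5% of the 15748 genes were called higher and 7.12% lower in injured IP, and 7.79% higher and 8.26% lower in injured input. The receptors were chosen with their injury change known, so nothing is read from these counts.

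**Figure D3:**
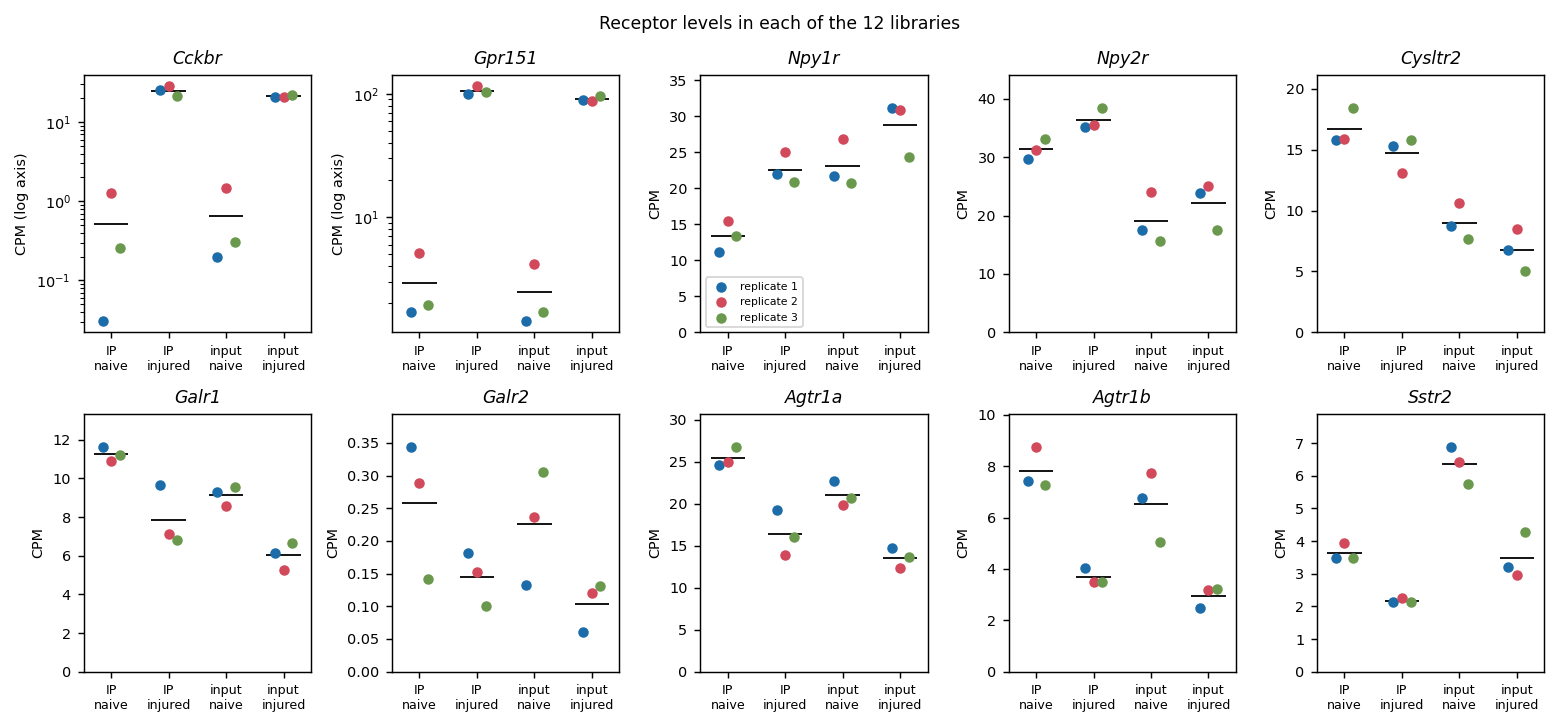
CPM of the 10 receptors in each of the 12 libraries, with points coloured by replicate number and a bar at each group mean; the axes of Cckbr and Gpr151 are logarithmic and the others start at 0. Cckbr and Gpr151 are at most 5.09 CPM in every naive library and at least 20.5 CPM in every injured one.

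Cckbr encodes the receptor for cholecystokinin and gastrin and lies on chromosome 7 (105425676 to 105436339, GRCm38). In naive IP it was at 0.0311, 1.27 and 0.256 CPM in replicates 1, 2 and 3, the first of which is a single count. In injured IP it was at 25.2, 28.3 and 21.3 CPM. Naive input held 0.198, 1.45 and 0.306 CPM and injured input 20.5, 20.5 and 22.2 CPM. The gene was thus close to the detection limit in naive replicate 1 and well counted in every injured library, with 677 to 1119 counts. The log2 change was 5.55 (SE 0.593) in IP and 4.97 (SE 0.578) in input. Without both naive libraries numbered 2 it was 7.36 in IP and 6.35 in input, so these libraries decide the size of the change and not its direction.

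The sequence upstream of Cckbr is shown because this gene had the largest change of the receptors in IP. It is RefSeq sequence on GRCm38.p6 from 200 to 56 bases before the annotated start, plus strand, chr7:105425531-105425675, and ends before the earliest start of the gene in RefSeq.
Cckbr upstream: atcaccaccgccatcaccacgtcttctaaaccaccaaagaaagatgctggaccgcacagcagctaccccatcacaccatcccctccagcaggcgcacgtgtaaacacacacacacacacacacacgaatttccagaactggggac
The stretch holds a run of alternating a and c. Neither of 2 motifs searched on both strands was found in the window from 250 bases before to 50 after this start. These were TGANTCA, bound by AP-1 factors, and TGACGTCA, the cyclic AMP response element. The motifs are present in 7.81% and 1.79% of 32851 promoter windows of 300 bases.

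Gpr151 encodes a receptor known in the nervous system mainly from habenular and sensory neurons, on chromosome 18 (42577881 to 42579652, GRCm38). It was at 1.71, 5.09 and 1.96 CPM in naive IP and at 99.2, 115 and 104 CPM in injured IP. Input gave 1.45, 4.21 and 1.72 CPM in naive and 88.5, 88.0 and 95.3 CPM in injured ganglia. In both fractions the naive level was low with replicate 2 the highest, and the injured libraries were close to each other. It differed by 5.17 on the log2 scale (SE 0.386) in IP and 5.19 (SE 0.392) in input, or 5.85 and 5.83 without both naive libraries numbered 2. Its level across the 12 libraries was most like that of Atf3 (Pearson r = 0.9991) and of Sox11 (r = 0.9947), both genes of transcription factors known from axotomised neurons. The most like genes for Cckbr were the peptide gene Ucn (r = 0.9973) and Npy (r = 0.9899). These correlations run over libraries of 4 groups and describe a shared group pattern.

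Galr1, an inhibitory galanin receptor on chromosome 18 (82392496 to 82406777, GRCm38), was lower in injured ganglia. It was at 11.6, 10.9 and 11.2 CPM in naive IP and at 9.65, 7.13 and 6.79 CPM in injured IP. Input held 9.28, 8.56 and 9.56 CPM in naive and 6.15, 5.26 and 6.67 CPM in injured ganglia. The groups did not overlap in either fraction, and injured IP replicate 1 was nearest to the naive range. Its log2 change was -0.52 (SE 0.138) in IP and -0.60 (SE 0.142) in input.

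Galr2, the gene of a galanin receptor that couples to Gq, lies on chromosome 11 and was barely counted. It had 11, 10 and 5 counts in naive IP and 7, 6 and 4 in injured IP. Input held 4, 8 and 10 counts in naive and 2, 4 and 4 in injured ganglia. It did not pass the low-count filter and was not tested, so 9 of the 10 receptors enter the tests below. Galr3, the remaining galanin receptor gene, was at 0.0406 ± 0.0479 CPM in naive IP and 0.0086 ± 0.0149 CPM in injured IP.

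Npy1r encodes the Y1 receptor for neuropeptide Y and lies on chromosome 8 (66697149 to 66706800, GRCm38). It was at 11.1, 15.5 and 13.3 CPM in naive IP and at 22.0, 25.0 and 20.8 CPM in injured IP, with no overlap. The input group means were higher, with 21.7, 26.8 and 20.7 CPM in naive and 31.1, 30.9 and 24.3 CPM in injured ganglia, and there the groups overlapped. The log2 change was 0.76 (SE 0.146) in IP and 0.32 (SE 0.143) in input. The difference between those changes was 0.45 (SE 0.204).

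A window of 29 bases is shown because it holds the only AP-1 motif found in the 7 receptor promoters used. The motif, in capitals, begins 231 bases before the start used in the promoter table, base 66697422 (RefSeq, GRCm38.p6, plus strand, chr8:66697180-66697208). It lies inside the gene by the earliest RefSeq start, base 66697149, and GENCODE starts a first exon at base 66697192, within this window.
Npy1r motif: tgcgccttgctTGAGTCAaggactagtgg
The match is a description of the letters and not of binding.

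Npy2r, the gene of the presynaptic Y2 receptor on chromosome 3 (82538383 to 82548989, GRCm38), moved little. It was at 29.7, 31.2 and 33.1 CPM in naive IP and 35.2, 35.5 and 38.4 CPM in injured IP. Input held 17.6, 24.1 and 15.7 CPM in naive and 23.8, 25.0 and 17.6 CPM in injured ganglia. The IP groups were close but separate and the input groups overlapped. Its log2 change was 0.22 (SE 0.15) in IP and 0.21 (SE 0.154) in input. The Y5 receptor gene Npy5r stayed under 1 CPM, at 0.517 ± 0.237 in naive IP and 0.314 ± 0.153 in injured IP.

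Agtr1a and Agtr1b encode the 2 rodent forms of the angiotensin II type 1 receptor, on chromosome 13 (30336356 to 30382867, GRCm38) and chromosome 3 (20314473 to 20367177). Agtr1a was at 24.6, 25.0 and 26.7 CPM in naive IP and 19.2, 13.9 and 16.0 CPM in injured IP. Input held 22.7, 19.8 and 20.7 CPM in naive and 14.7, 12.4 and 13.6 CPM in injured ganglia. Agtr1b was at 7.41, 8.73 and 7.27 CPM in naive IP and 4.03, 3.49 and 3.51 CPM in injured IP. Input held 6.77, 7.73 and 5.03 CPM in naive and 2.49, 3.19 and 3.22 CPM in injured ganglia. Neither gene overlapped between naive and injured libraries in either fraction. On the log2 scale the change was -0.64 (SE 0.116) in IP and -0.63 (SE 0.118) in input for Agtr1a, and -1.09 (SE 0.168) and -1.13 (SE 0.175) for Agtr1b.

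The coding sequences of Agtr1a and Agtr1b are close enough that reads could be split between them. Over 1080 coding bases, 981 (90.8%) are identical, and the longest identical run is 66 bases. Of the 25-base stretches of the Agtr1a transcript, 5.93% also occur in Agtr1b, against 1.53% of 50-base stretches and 0 of 75-base stretches. The stretch from coding base 972 to 1061 (GENCODE M21 transcripts on GRCm38) is shown with its 20 differing bases in capitals, because reads from here can be told apart.
Agtr1a: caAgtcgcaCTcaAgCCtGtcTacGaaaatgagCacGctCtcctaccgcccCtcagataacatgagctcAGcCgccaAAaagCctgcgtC
Agtr1b: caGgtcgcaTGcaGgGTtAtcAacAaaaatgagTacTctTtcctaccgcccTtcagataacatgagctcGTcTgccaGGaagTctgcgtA
How the authors counted reads matching both genes is not stated in the sources used here. Summed into 1 entry, the pair changed by -0.73 (SE 0.103, log2) in IP and -0.74 (SE 0.105) in input. Agtr1a also overlaps Gm48161 on the same strand.

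Sstr2, an inhibitory somatostatin receptor gene on chromosome 11 (113619327 to 113626028, GRCm38), was lower in injured ganglia and higher in input than in IP. It was at 3.49, 3.93 and 3.47 CPM in naive IP and at 2.12, 2.27 and 2.13 CPM in injured IP. Input held 6.87, 6.43 and 5.76 CPM in naive and 3.21, 2.95 and 4.27 CPM in injured ganglia. The groups were separate in both fractions. The log2 change was -0.74 (SE 0.16) in IP and -0.87 (SE 0.153) in input. Sstr2 overlaps Slc39a11, a zinc transporter gene, on the opposite strand, and the strand setting of the counting is not stated. Slc39a11 changed by 0.02 (SE 0.0791) in IP.

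The Sstr2 promoter window held the only cyclic AMP response element among the 7 receptor promoters, and 30 bases around it are shown for that reason. It begins 58 bases before the start (RefSeq, GRCm38.p6, plus strand, chr11:113619258-113619287), with the motif in capitals.
Sstr2 motif: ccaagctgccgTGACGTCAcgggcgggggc

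Cysltr2 encodes the second receptor for cysteinyl leukotrienes and in mouse ganglia marks a class of itch neurons that also hold somatostatin. It lies on chromosome 14 (73025672 to 73049114, GRCm38). It was at 15.8, 15.9 and 18.4 CPM in naive IP and 15.3, 13.1 and 15.8 CPM in injured IP, so the groups met at 15.8 CPM. Input held 8.75, 10.6 and 7.66 CPM in naive and 6.75, 8.48 and 5.03 CPM in injured ganglia, with overlap. Its log2 change was -0.18 (SE 0.166) in IP and -0.41 (SE 0.176) in input. Of 7 other markers of these itch neurons, 2 were called higher and 2 lower in injured IP, against 11.5% and 7.12% of all genes. Averaged over naive and injured ganglia, 6 of the 7 were higher in IP than in input and 0 lower. Over all genes those shares were 27.1% and 30.8%.

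Ribosome IP against input was not used to choose the receptors and was tested with edgeR's quasi-likelihood test, with adjustment over all genes. Averaged over naive and injured ganglia, 4 of the 9 tested were higher in IP, 2 were lower and 3 did not pass. Over all genes 27.1% were called higher and 30.8% lower. Cysltr2 was the most enriched, with a log2 difference of 1.01 (SE 0.122, adjusted p = 1.26e-05), followed by Npy2r at 0.71 (SE 0.108, adjusted p = 8.85e-05). For these receptors every IP library was above every input library. Galr1 at 0.34 (SE 0.0989, adjusted p = 0.00974) and Agtr1a at 0.27 (SE 0.0826, adjusted p = 0.0129) were also higher in IP. With library size as the only scaling, which moved the median of all genes by -0.12, neither Galr1 (0.22, adjusted p = 0.0708) nor Agtr1a (0.15, adjusted p = 0.138) passed.

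The receptors lower in IP were Sstr2, at -0.74 (SE 0.111, adjusted p = 8.07e-05), and Npy1r, at -0.57 (SE 0.102, adjusted p = 0.000347). In Sstr2 each IP group lay below the input group of the same ganglia. In Npy1r the naive groups were separate, while injured IP replicate 2, at 25.0 CPM, was above injured input replicate 3, at 24.3 CPM. The markers of glia, macrophages, vessels and fibroblasts were lower in IP too, as given above, and so were 3 of 7 myelinated neuron markers. The part of any of these cells in the differences was not tested. Slc39a11, which overlaps Sstr2, was instead higher in IP by 0.18 (SE 0.0562, adjusted p = 0.0169).

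The 3 receptors that did not pass were Agtr1b, Gpr151 and Cckbr. Agtr1b had a log2 difference of 0.29 (SE 0.121, adjusted p = 0.0587), close to that of Agtr1a, and the sum of the pair was called at 0.27 (SE 0.0734, adjusted p = 0.00613). The call of Agtr1b was made without naive input replicate 2 (0.36, adjusted p = 0.0231) and without injured input replicate 3 (0.32, adjusted p = 0.049). Gpr151 was at 0.23 (SE 0.259, adjusted p = 0.462) and Cckbr at -0.05 (SE 0.445, adjusted p = 0.935), with wide errors. In edgeR with a replicate block within each state, Gpr151 was called higher in IP (0.23, adjusted p = 0.0185).

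Within naive ganglia, the test called Cysltr2 (0.89, adjusted p = 0.00106) and Npy2r (0.71, adjusted p = 0.00241) higher in IP, and Sstr2 (-0.81, adjusted p = 0.000946) and Npy1r (-0.80, adjusted p = 0.000783) lower. Over all genes, 15.1% were higher and 26% lower there. In injured ganglia Cysltr2 (1.13, adjusted p = 0.000191), Npy2r (0.72, adjusted p = 0.00189) and Galr1 (0.38, adjusted p = 0.0417) were higher and Sstr2 (-0.67, adjusted p = 0.00411) was lower, against 21.4% and 24.6% of all genes. Npy1r in injured ganglia was at -0.35 (adjusted p = 0.0625). The injured call of Galr1 was lost without injured IP replicate 1 (0.21, adjusted p = 0.219), injured input replicate 1 (0.40, adjusted p = 0.0753) or injured input replicate 2 (0.29, adjusted p = 0.141). That call was also lost in 5 other settings, given with the alternatives. The Npy1r difference was called without injured input replicate 3 (-0.45, adjusted p = 0.017) and under 4 other alternatives. Agtr1a in naive ganglia, at 0.27 (adjusted p = 0.0759), was called under 6.

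**Figure D4:**
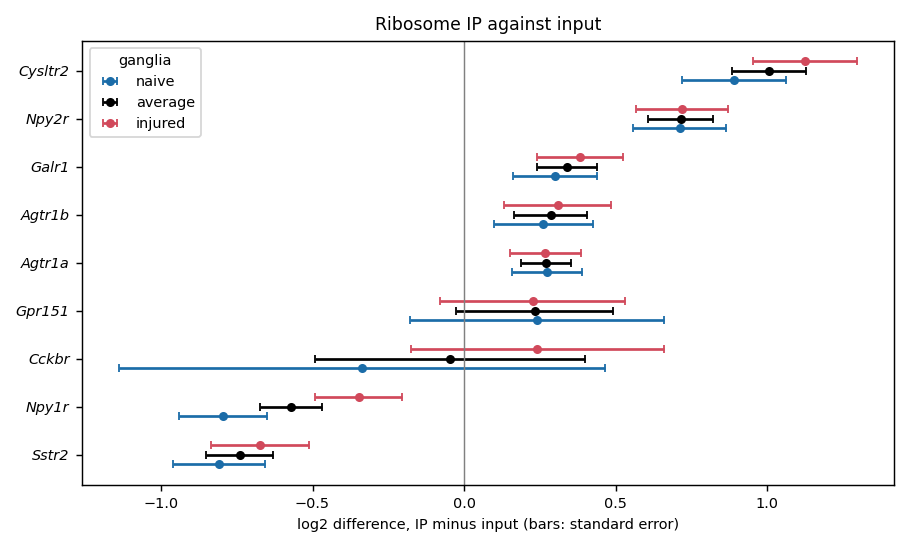
Log2 difference of IP minus input for the 9 receptors tested, with standard errors, in naive ganglia (blue), injured ganglia (red) and averaged over both (black). Cysltr2 and Npy2r lie to the right of 0 (averages 1.01 and 0.71), Npy1r and Sstr2 to the left (-0.57 and -0.74), and Cckbr and Gpr151 have the widest bars.

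Among 17 genes of the ligands and the enzymes that make or cleave them, 11 could be tested, and 2 rose and 2 fell in injured IP. Galanin (Gal) was at 4.3, 13.1 and 5.94 CPM in naive IP and 178.0, 197.0 and 220.0 CPM in injured IP, a log2 change of 4.67 (SE 0.35, adjusted p = 1.91e-06). Neuropeptide Y (Npy) was at 0.28, 2.69 and 0.483 CPM in naive IP and 48.1, 70.1 and 68.0 CPM in injured IP, a change of 5.73 (SE 0.608, adjusted p = 3.58e-05). Both rose in input as well, by 3.87 and 5.49 on the log2 scale. Without both naive libraries numbered 2, the change of Gal was 5.27 in IP and 4.05 in input, and that of Npy 7.32 and 6.49. Both peptides thus rose where the levels of their receptors Galr1, Npy1r and Npy2r moved by less than 1 log2 unit in either direction.

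Somatostatin (Sst), the ligand of Sstr2, fell. It was at 8.78, 7.51 and 8.1 CPM in naive IP and 5.27, 4.65 and 4.11 CPM in injured IP (log2 change -0.80, SE 0.167, adjusted p = 0.0046). It was higher in IP than in input by 0.74 (SE 0.122, adjusted p = 0.000186), opposite to Sstr2. In input the fall was -0.62 (adjusted p = 0.0319), and was lost without naive input replicate 2 or 3 or injured input replicate 1 or 2, at an adjusted p of up to 0.157. Cholecystokinin (Cck) was at 0.365 ± 0.178 CPM in naive IP and 0.345 ± 0.201 CPM in injured IP, and gastrin (Gast) had no count in naive ganglia. The peptide genes Galp, Pyy and Ppy and the renin gene Ren1 were at or near 0.

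Of the angiotensin system, the precursor gene Agt was at 5.1 ± 0.843 CPM in naive IP and 4.38 ± 0.51 CPM in injured IP and did not pass (adjusted p = 0.414). The converting enzyme gene Ace was lower in IP than in input, with a log2 difference of -1.23 (SE 0.0882, adjusted p = 1.47e-07). Enpep, whose enzyme cleaves angiotensin II, fell in injured IP by 0.63 on the log2 scale (adjusted p = 0.0152). That call was lost without naive IP replicate 2 or injured IP replicate 1 or 3, at an adjusted p of up to 0.0745. In injured input Enpep did not pass (-0.20, adjusted p = 0.437), and it was lower in IP than in input (-0.95, adjusted p = 8.82e-06). The leukotriene genes Alox5, Alox5ap and Ltc4s were lower in IP than in input, with log2 differences of -2.42, -2.29 and -3.27 (adjusted p 9.61e-06, 2.85e-06 and 1.83e-05). Macrophage markers had the same direction, and their part was not tested. Ltc4s rose in injured input by 1.58 on the log2 scale (SE 0.412, adjusted p = 0.0194), from 13, 11 and 14 counts to 44, 46 and 26, and its adjusted p reached 0.0799 without naive input replicate 2, with the call also lost without naive input replicate 1 or injured input replicate 1 or 2. Leaving out naive replicate 2 or injured replicate 1 or 2 gave 2 calls for the list in input. In a fit paired by replicate number the ligand list gave 4 higher and 2 lower in IP, and 5 higher and 1 lower in input against 3 and 1 without pairing. The paired fit called 6586 of all 15748 genes in IP and 6237 in input. Without pairing, 11.5% of all genes were called higher and 7.12% lower in IP, and 7.79% and 8.26% in input.

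Of 71 other peptide receptor genes, 42 were tested, and 6 rose and 4 fell in injured IP, with a median log2 change of -0.107 against 0.0210 over all genes. In input 5 rose and 3 fell, with a median of -0.146 against -0.0221. Over all genes, 11.5% were called higher and 7.12% lower in IP, and 7.79% and 8.26% in input. Paired by replicate number, the list gave 8 higher and 7 lower in IP, and 7 and 6 in input. The paired fit called 6586 of all 15748 genes in IP and 6237 in input. Without both naive libraries numbered 2 the list gave 7 higher and 3 lower in IP and 5 calls in input, and input also had 5 without naive replicate 1. Mchr1, a melanin-concentrating hormone receptor gene, rose from 2.97 ± 0.455 to 9.86 ± 1.43 CPM in IP (log2 change 1.73, SE 0.167, adjusted p = 1.02e-05). Qrfpr, a receptor gene for the peptide QRFP, rose by 1.16 in IP (adjusted p = 0.0498). That call was lost without naive IP replicate 2 or 3 or injured IP replicate 1 or 2, at adjusted p up to 0.181. In input Qrfpr did not pass (0.84, adjusted p = 0.187), but was called when paired by replicate number (adjusted p = 0.046).

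Mc1r, a melanocortin receptor gene, had 3, 4 and 0 counts in naive IP and 14, 26 and 11 in injured IP (adjusted p = 0.0155). The call was lost without naive IP replicate 3 (adjusted p = 0.0553) or injured IP replicate 2 (adjusted p = 0.0733). The input counts were 0, 0 and 1 in the naive and 9, 16 and 12 in the injured libraries. Mc1r overlaps Gm20388 on the same strand, so its counts are uncertain. Cckar, the other cholecystokinin receptor gene, was singled out after its values were seen, as the partner of Cckbr. It rose from 34.1 ± 1.89 to 76.1 ± 3.09 CPM in IP (log2 change 1.16, SE 0.0769, adjusted p = 4.16e-07). In naive IP it was thus the better counted of the cholecystokinin receptors, and all its naive libraries, at 33.0 to 36.3 CPM, were above the highest Cckbr library.

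Among the other peptide receptors called lower in injured IP, Oxtr, Ednra and Prokr1 fell most. The oxytocin receptor gene Oxtr fell by 1.28 (SE 0.244, adjusted p = 0.00234), the endothelin receptor gene Ednra by 0.94 (SE 0.184, adjusted p = 0.00276) and the prokineticin receptor gene Prokr1 by 0.55 (SE 0.0861, adjusted p = 0.000578). Prokr1 was the best counted of them, at 52.7 ± 3.13 CPM in naive and 36.0 ± 1.4 CPM in injured IP. In input, Oxtr (-0.39, adjusted p = 0.341) and Ednra (-0.50, adjusted p = 0.0663) did not pass, and Prokr1 fell by 0.67 (adjusted p = 0.000225). Ednra was called lower in input when paired by replicate number (adjusted p = 0.00603) and with limma-voom (adjusted p = 0.047). It was also called there without injured input replicate 2 (adjusted p = 0.0435).

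**Figure D5:**
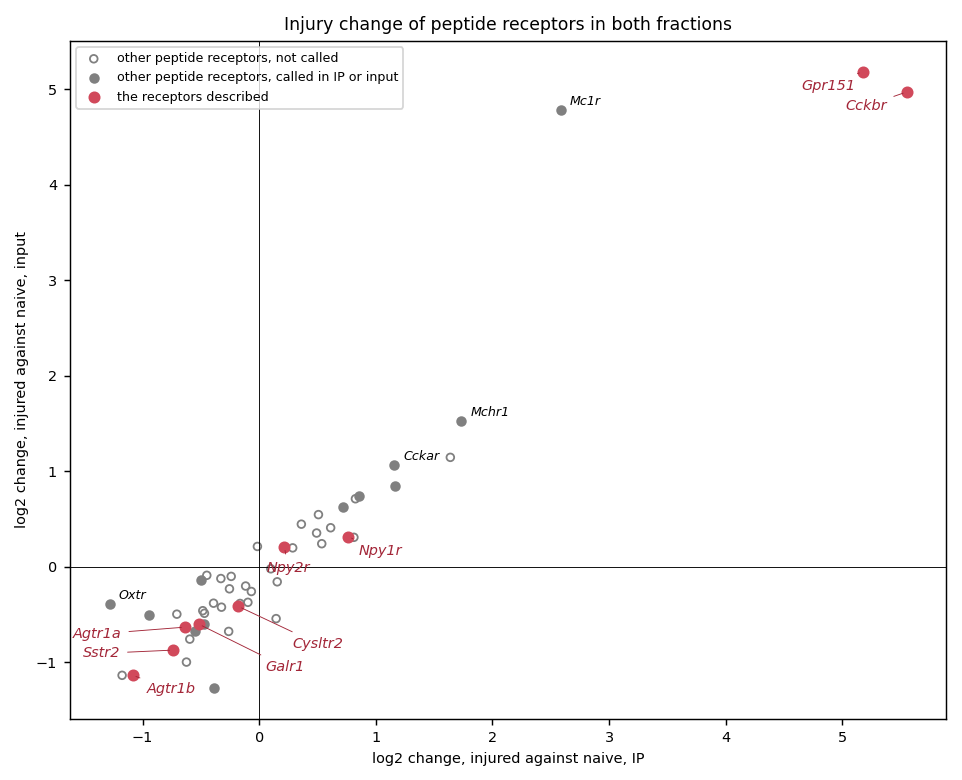
Log2 change of injured against naive ganglia in IP (x axis) and input (y axis) for the 9 receptors tested (red) and 42 other peptide receptor genes (grey, filled where called in either fraction). Gpr151 and Cckbr lie at about 5 on both axes, and the other 7 receptors lie between -1.13 and 0.76.

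Averaged over naive and injured ganglia, 4 of the 42 other peptide receptors were higher in IP than in input and 11 were lower, with a median of -0.0788 against 0.0148 over all genes. With library size as the only scaling these counts were 1 and 14. Prokr1 was higher in IP by 0.52 (SE 0.0614, adjusted p = 9.85e-06). Pth2r (0.91, adjusted p = 0.0407) and Rxfp1 (0.66, adjusted p = 0.0197) were also called, but not with library size alone (adjusted p = 0.0751 and 0.0537). Leaving out any of 9 of the 12 libraries ended the call of Pth2r, at adjusted p up to 0.116 (without naive IP replicate 3), and that of Rxfp1 ended without naive IP replicate 1 (adjusted p = 0.0507). The largest falls were in the endothelin receptor gene Ednrb (-2.76, SE 0.226, adjusted p = 6.65e-07), the apelin receptor gene Aplnr (-2.71, SE 0.31, adjusted p = 7.99e-06) and the vasoactive intestinal peptide receptor gene Vipr2 (-1.99, SE 0.221, adjusted p = 6.02e-06). Ednrb is known from glia and Aplnr from endothelium.

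Of 49 other orphan receptor genes, 39 were tested, and 6 rose and 4 fell in injured IP (median -0.167), against 4 and 5 in input (median -0.191). Without injured IP replicate 2 there were 6 calls in IP, and without naive replicate 3 or injured replicate 1 there were 5 in input. Paired by replicate number the counts were 8 and 13 in IP and 9 and 13 in input, in a fit that called 6586 of all 15748 genes in IP and 6237 in input. Without pairing, 11.5% of all genes were called higher and 7.12% lower in IP, and 7.79% and 8.26% in input. Gpr19 rose by 0.89 (SE 0.107, adjusted p = 7.45e-05) and Gpr153 by 0.89 (SE 0.0866, adjusted p = 1.17e-05), the latter from 103.0 ± 2.7 to 191.0 ± 3.34 CPM. Gpr34, known from microglia and macrophages, had 0, 0 and 3 counts in naive IP and 2, 14 and 15 in injured IP (adjusted p = 0.0353). The call was lost without naive IP replicate 1 or 2 or injured IP replicate 2 or 3, at adjusted p up to 0.122, and macrophage markers moved the same way. In input Gpr34 did not pass (0.93, adjusted p = 0.187), but was called when paired by replicate number (adjusted p = 0.021). Gpr165 fell by 0.84 (SE 0.193, adjusted p = 0.00811) and Gpr26 by 0.48 (SE 0.131, adjusted p = 0.0209), the latter lost without naive IP replicate 1 or injured IP replicate 2 or 3, at adjusted p up to 0.107.

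Of 16 receptor genes for other lipid mediators, 12 were tested, and 0 rose and 4 fell in each fraction, with medians of -0.356 in IP and -0.0681 in input. By unadjusted p under 0.05, 6 genes passed in each. Only 2 calls were left in IP without naive replicate 1 or 2 or injured replicate 1 or 3, and in input without naive replicate 2 or 3. With only the 6 input libraries compared, edgeR called 0 in input, with 5 at an unadjusted p under 0.05. Paired by replicate number, 1 rose and 5 fell in each fraction, where that fit called 6586 of all 15748 genes in IP and 6237 in input. Without pairing, 7.12% of all genes were called lower in IP and 8.26% in input, and 11.5% and 7.79% higher. The prostaglandin receptor genes Ptgfr (-0.55, SE 0.125, adjusted p = 0.00784), Ptger3 (-0.45, SE 0.0916, adjusted p = 0.00384) and Ptger1 (-0.39, SE 0.117, adjusted p = 0.0337) were the leading called falls in IP. The Ptger1 call was lost with any 1 of the 6 IP libraries left out, at adjusted p up to 0.118. Of 13 sensory neuron markers, 6 also fell and 1 rose in injured IP, and their part in these falls was not tested.

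A list of 54 genes held G protein subunits, arrestins, receptor kinases and RGS proteins, and also Ramp3. All were tested, and 6 rose and 11 fell in injured IP, with 5 and 11 in input. Without naive IP replicate 1 or 3 there were 11 calls in IP, and without naive input replicate 2 there were 10 in input. Paired by replicate number, 13 rose and 19 fell in IP, and 10 and 22 in input. That fit called 6586 of all 15748 genes in IP and 6237 in input. Without pairing, 11.5% of all genes were called higher and 7.12% lower in IP, and 7.79% and 8.26% in input. Rgs20 rose by 1.69 (SE 0.242, adjusted p = 0.000304) and the arrestin gene Arrb1 by 0.77 (SE 0.0672, adjusted p = 4.48e-06), from 577.0 ± 3.14 to 984.0 ± 21.9 CPM. Ramp3, whose product escorts calcitonin-family receptors to the membrane, rose by 0.93 in IP (adjusted p = 0.0206). That call was lost without any 1 naive IP library or injured IP replicate 2, at adjusted p up to 0.0859. In input Ramp3 did not pass (0.49, adjusted p = 0.202), but was called without naive input replicate 3 (adjusted p = 0.045). Rgs6 fell by 0.73 (SE 0.091, adjusted p = 9.93e-05), the G protein gamma subunit gene Gng7 by 0.62 (SE 0.123, adjusted p = 0.00334) and Rgs10 by 0.51 (SE 0.0958, adjusted p = 0.00205), all in IP. In input Gng7 did not pass (-0.35, adjusted p = 0.0677). It was called there when paired by replicate number (adjusted p = 0.00526) and without injured input replicate 2 (adjusted p = 0.0444). Rgs6 was also the gene whose level over the 12 libraries was most like that of Agtr1b (r = 0.9808).

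The difference of the injury changes, IP minus input, was called in 0 genes of any of these 5 lists by edgeR, DESeq2 or limma-voom, and in 0.0635% of all genes by edgeR. By unadjusted p under 0.05, each tool had 1 of 42 other peptide receptors. For the receptors described, whose injury changes were used in choosing them, this difference is a value with no test. It was 0.58 for Cckbr, 2.39 without naive IP replicate 2 and -0.80 without naive input replicate 2. It was -0.01 for Gpr151, 0.66 without the former library and -0.66 without the latter, and 0.08 for Galr1, or -0.09 without injured IP replicate 1.

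Likeness was also taken for the remaining receptors. Across the 12 libraries, Galr1 was most like the potassium channel gene Kcnt1 (r = 0.9831), Npy1r like Apaf1 (r = 0.9766), and Npy2r like Jakmip2 (r = 0.9836). Agtr1a was most like Cntnap5a (r = 0.9724), Sstr2 like the lipid transporter gene Abcg1 (r = 0.9735), and Cysltr2 like Emc8 (r = 0.9925).

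The second deposited table counts reads in short intervals in or beyond 3′ untranslated regions and gives another view of the same libraries. Summed over the 3 libraries of a group, the intervals inside the Cckbr untranslated region held 8 counts in naive IP and 484 in injured IP, and 16 and 374 in input. Of the 8 naive IP counts, 7 came from replicate 2. The interval of Gpr151 held 18 and 425 counts in IP, with 17 of the 18 from naive replicate 2, and its intervals labelled as beyond the region held 2 and 157. Galr1 went from 95 to 60 counts inside the region and from 227 to 188 in intervals labelled as beyond it, both in IP. Of those 60 counts, 34 came from injured IP replicate 1, as many as in naive IP replicate 3, the highest naive one. All these sums are raw counts not scaled to depth, and the injured IP libraries were the deepest. For Cysltr2, 2 intervals that the table labels as beyond the region held 135 and 107 counts in naive IP, against 30 in the interval inside it. Those 2 intervals lie within the span that RefSeq gives the gene. These intervals cover part of each gene and were not tested.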

How the data were processed

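The deposited tables hold the authors' raw counts, 1 per RefSeq gene and 1 per short genomic interval, for 12 libraries. Total RNA was extracted with an RNeasy Mini kit and depleted of ribosomal RNA for stranded libraries, per the labels. Tools and builds named in the submitters' processing notes, without roles, are bcl2fastq 2.17, STAR, HTSeq, GRCm38 and mm10; strand and multi-mapping settings are not given in the sources used here. Of 24060 gene entries, 27 with names turned into dates were left out (at most 0.214% of counts).

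Groups came from the sample titles. Counts were fitted in edgeR 4.0.16 (robust quasi-likelihood, TMM, filterByExpr, R 4.3.3) with a mean for each of 4 groups (8 residual degrees of freedom), and p-values were adjusted by Benjamini-Hochberg over 15748 genes, with a threshold of 0.05. CPM uses the TMM-scaled library size; 3 counts correspond to 0.0934 CPM in naive IP replicate 1. That limit covers counting error only. Each SE of an edgeR change is its size divided by the square root of the F statistic, and is not a separately fitted error. For the injury changes of the receptors, chosen by these changes, the SE is a description and no test. Replicates of a group differed by more than sampling noise (chi-square per degree of freedom 4.749 to 54.94), so none were merged.

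Naive and injured libraries with the same number deviated together, with r of 0.427, 0.299 and 0.174 in IP and 0.255, 0.397 and 0.567 in input. The labels state that injured and naive ganglia came from each animal, but not which libraries belong together. The pairing by number was read from the data and entered only the alternative fits with a replicate block. The main fit had no such term, so its p-values ignore the pairing. Receptors and lists were chosen with earlier results of these data known. Named were all 10 receptors, the ligand and enzyme genes tested, up to 3 called genes per direction of each other list by size of change in IP (and in IP against input for peptide receptors), Atf3 and Sprr1a, and for each receptor the genes most like it by Pearson r of log2 CPM; receptor injury changes have no test. Some genes under this rule are not reported here. Alternatives were other scaling, no filter, DESeq2 1.42.0, limma-voom 3.58.1, replicate blocks, only the 6 libraries compared, leaving out libraries, and summing Agtr1a with Agtr1b. Promoters of 7 of the 10 receptors were used from RefSeq (GRCm38.p6), and gene positions are RefSeq's. Promoters on chromosome 18, where Gpr151 and Galr1 lie, were left out of this set, and it held none for Agtr1a.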

Additional observations from a re-analysis of the deposited data

How the results depend on the processing

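No called direction reversed under any alternative. The counts over all genes moved most with the replicate block: with a block within each fraction, the 2939 genes called in injured IP became 6586, the 2526 in input 6237, the 10 of the difference between fractions 282, and the 8 other peptide receptors in input 13. With an additive block that difference had 18 genes, and with DESeq2 44. With only the 6 libraries compared, the calls were 4736 in IP, 1335 in input and 4 for the peptide receptors in input. Without both naive libraries numbered 2, they were 1669 in input and 5 for the peptide receptors there. Leaving out 1 library gave 1524 to 2653 calls in input, 0 to 15 for the difference and 5 to 8 peptide receptors in input; input calls were fewest without naive replicate 1. The cause was not tested.

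IP and input libraries of the same number deviated together less clearly (r of 0.112, 0.0802 and 0.125 in naive, 0.218, 0.0464 and 0.124 in injured ganglia). Their numbers were not taken as pairs in the main fit. Both naive libraries numbered 2 were nevertheless raised in the same injury genes, with Atf3 at 6.05% of the injured mean in IP and 5.97% in input. A shared source of same-number IP and input libraries was not tested, and the main IP against input p-values do not allow for one. With a replicate block within each state, Gpr151 was called higher in IP on average (0.23, adjusted p = 0.0185), and with an additive block Agtr1b was (0.29, adjusted p = 0.0417). Agtr1b was also called with DESeq2 (adjusted p = 0.0283) and with its size factors (adjusted p = 0.0328). Within injured ganglia, the Galr1 call was lost with library size alone (adjusted p = 0.2), no filter (0.0629), limma-voom (0.0518), the block within state (0.0506) and only the 6 libraries compared (0.152). Npy1r there was called with library size alone (0.0165), DESeq2 (0.0486), the additive block (0.0142) and the block within state (0.0202). Agtr1a in naive ganglia was called with DESeq2 (0.0254), its size factors (0.0357), no filter (0.0431), the additive block (0.0302), the block within state (0.0479) and only the 6 libraries compared (0.0367). Of the calls averaged over naive and injured ganglia, those of Cysltr2, Npy2r, Npy1r and Sstr2 held under every alternative. Of the genes called between IP and input on average, 46.81% were higher in IP, against 28.92% with library size alone, which moved the median by -0.12; in naive ganglia the shares were 36.81% and 22.34%, and in injured ganglia 46.51% and 23.94%. Depth limits Galr2, with 2 to 11 counts per library, and the naive level of Cckbr.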
